A study of Mus musculus with 2 samples.

Results

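A group of 267 E2F1 peaks had their summit just inside a gene, a short way past the transcription start site (TSS), and was the promoter peak of that gene alone. The authors' table describes a peak by its summit and the DNA on both sides of it, 301 bp in all, called the window here. The peaks were chosen as those with exactly 1 promoter entry whose window lay wholly on the gene side of the TSS. They were 267 of 5667 peaks (4.71%) and 267 of the 2280 peaks with exactly 1 promoter entry (11.7%). The choice used position only, and no value of peak strength. For comparison, 1147 of the peaks with 1 promoter entry held the TSS in the window and 866 lay upstream, 683 of them within 499 bp.

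E2F1 was mapped by chromatin immunoprecipitation and sequencing (ChIP-seq), which enriches DNA bound by a protein, against input chromatin. The labels give 1 E2F1 ChIP record and 1 input record, both from primary hepatocytes of C57Bl6J mice carrying the adenovirus Ad-E2F1 and harvested 36 h after infection. The ChIP used the anti-E2F1 antibody c-20, and the input used none. Both libraries therefore come from cells with added E2F1, and cells without the vector were not analysed here. The series text mentions 2 replicates, which the 1 list of peaks does not tell apart, so the peaks carry no replicate error and no difference below was tested. Tags, heights, folds and false discovery rates (FDR) are the authors' values for each peak. Read totals of the libraries were not known, and the list is a selection of called peaks.

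E2F1 is a transcription factor that pairs with a DP protein and binds short GC-rich sites, mostly close to the starts of genes. It is known for switching on genes of DNA replication and the cell cycle, and the retinoblastoma protein holds it in check in resting cells. Adult hepatocytes rarely divide, and E2F1 has also been tied to metabolic genes in liver.

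The promoter DNA of members shows how seldom the textbook E2F site stood at the start of these genes. RefSeq promoters (build GRCm38.p6, from 250 bases before to 50 after each annotated start) were matched to 216 of the 267 genes. They were searched on both strands for the E2F words TTTCCCGC, TTTGGCGC, TTTCGCGC and TTTGCCGC, which differ in the middle letters. Only the 4 genes shown first here held such a word. Phf19 encodes a Polycomb-associated protein and lies on the minus strand at chr2:34913927-34914226. 5830415F09Rik is on the minus strand at chr4:46389374-46389673. Fam173a, a methyltransferase gene, is on the minus strand at chr17:25792738-25793037. Kbtbd7, which encodes an adaptor of a ubiquitin ligase, is on the plus strand at chr14:79426261-79426560. They are printed 5′ to 3′ along the gene, with the matched word, or its reverse complement, in capitals:
Phf19: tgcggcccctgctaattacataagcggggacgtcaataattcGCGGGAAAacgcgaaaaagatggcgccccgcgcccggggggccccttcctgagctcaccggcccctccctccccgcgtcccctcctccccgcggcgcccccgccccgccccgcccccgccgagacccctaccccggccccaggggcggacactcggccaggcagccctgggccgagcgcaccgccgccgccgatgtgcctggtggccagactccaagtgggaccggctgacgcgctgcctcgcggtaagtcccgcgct
5830415F09Rik: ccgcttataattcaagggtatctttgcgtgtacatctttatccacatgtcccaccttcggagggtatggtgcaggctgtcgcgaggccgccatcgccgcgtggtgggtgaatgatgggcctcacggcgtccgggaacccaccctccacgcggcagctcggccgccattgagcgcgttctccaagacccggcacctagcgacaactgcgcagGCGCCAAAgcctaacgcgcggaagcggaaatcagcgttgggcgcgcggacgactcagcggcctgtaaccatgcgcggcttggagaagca
Fam173a: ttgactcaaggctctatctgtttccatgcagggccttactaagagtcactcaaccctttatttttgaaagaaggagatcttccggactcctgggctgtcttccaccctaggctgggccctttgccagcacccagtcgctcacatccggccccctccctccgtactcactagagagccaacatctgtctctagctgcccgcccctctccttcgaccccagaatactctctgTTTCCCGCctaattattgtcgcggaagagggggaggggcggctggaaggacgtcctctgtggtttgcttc
Kbtbd7: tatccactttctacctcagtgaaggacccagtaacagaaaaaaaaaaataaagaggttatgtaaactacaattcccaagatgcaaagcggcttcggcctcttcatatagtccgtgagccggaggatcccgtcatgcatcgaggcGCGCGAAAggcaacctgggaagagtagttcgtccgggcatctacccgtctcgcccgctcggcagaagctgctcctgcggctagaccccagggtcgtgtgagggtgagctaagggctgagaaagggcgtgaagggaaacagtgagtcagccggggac

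The strongest members with 1 annotated start held no such word. Tuba1b, an alpha-tubulin gene, is shown from the minus strand at chr15:98934341-98934640. Tyms, the gene of thymidylate synthase, is shown from the minus strand at chr5:30073576-30073875. Anapc5, a subunit gene of the anaphase-promoting complex, is shown from the minus strand at chr5:122821293-122821592. These 3 promoters are printed wholly in lower case because neither the E2F words nor their shorter forms were found in them:
Tuba1b: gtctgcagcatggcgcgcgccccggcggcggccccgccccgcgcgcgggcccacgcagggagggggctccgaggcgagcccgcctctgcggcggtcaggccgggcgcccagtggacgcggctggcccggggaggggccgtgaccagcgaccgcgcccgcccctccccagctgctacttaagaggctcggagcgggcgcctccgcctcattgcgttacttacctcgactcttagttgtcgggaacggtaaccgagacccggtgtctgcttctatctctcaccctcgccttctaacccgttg
Tyms: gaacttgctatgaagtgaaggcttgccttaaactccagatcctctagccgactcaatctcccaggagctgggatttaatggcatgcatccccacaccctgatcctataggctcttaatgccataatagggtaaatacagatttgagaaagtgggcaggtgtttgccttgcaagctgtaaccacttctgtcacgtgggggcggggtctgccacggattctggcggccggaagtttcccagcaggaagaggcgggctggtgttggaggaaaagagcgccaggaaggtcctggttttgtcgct
Anapc5: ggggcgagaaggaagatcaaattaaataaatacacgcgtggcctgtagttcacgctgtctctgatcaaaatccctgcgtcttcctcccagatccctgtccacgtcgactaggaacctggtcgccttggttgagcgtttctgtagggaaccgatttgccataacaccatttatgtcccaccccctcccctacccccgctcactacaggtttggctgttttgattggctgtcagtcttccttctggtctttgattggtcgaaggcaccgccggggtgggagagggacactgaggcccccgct

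An E2F word was found in 4 of 216 members' promoters (1.85%, exact 95% interval 0.507 to 4.67). It was found in 107 of 937 genes with the TSS in the window (11.4%, 9.45 to 13.6) and in 58 of 553 genes with an upstream peak within 499 bp (10.5%, 8.06 to 13.4). Over 17491 protein-coding genes with a promoter sequence the share was 3.29%. The members' interval lay below that of either other promoter group and held the share of all coding genes. Peaks inside a gene below 1000 bp with no promoter entry had a word in 4 of 88 genes (4.55%, 1.25 to 11.2). This interval overlaps that of the members and those of both other promoter groups. The count is too small to place these peaks with either, so the low share is not shown to be particular to members. Among genes with 1 annotated start the shares were 1.16% of 172 members, 11.7% of 785 genes with the TSS in the window and 10.3% of 457 genes with an upstream peak. These intervals cover counting error over genes only. Where the RefSeq start is the authors' TSS, the searched stretch overlaps the windows of peaks on the TSS and of most upstream peaks. Most member windows lie beyond it. The comparison thus sets DNA that overlaps the window, for peaks on the TSS and most upstream peaks, against DNA beside the window in most members. Overlap with the window does not place the summit in the searched stretch. With the summit at mid-window, it would lie outside the stretch in every member and in many upstream peaks.

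Shorter 7-letter forms without the first T were more frequent in members but kept the same order against the other promoter peaks. A form was present in 38 of 216 members' promoters (17.6%, 12.8 to 23.3), against 35.1% of genes with the TSS in the window and 30.2% of genes with an upstream peak. The further intragenic peaks below 1000 bp held one in 15 of 88 genes (17.0%) and all coding promoters in 13.7%, both inside the members' interval. Trp73, the gene of a p53 relative that is a known E2F1 target, and Fanci, a Fanconi anaemia gene, were among these 38. Both were picked out after their values were seen.

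**Figure D1:**
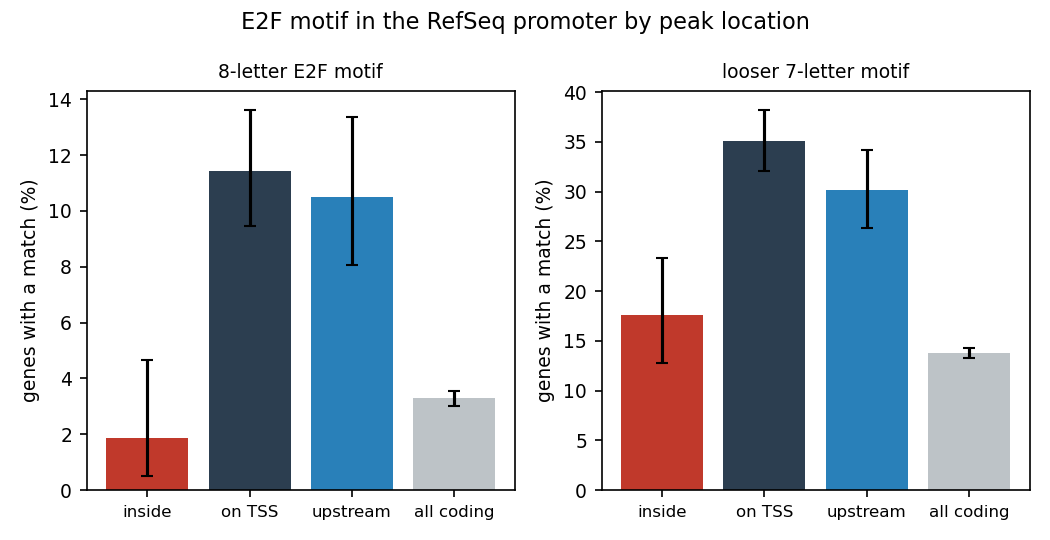
Share of genes (%) whose RefSeq promoter holds an 8-letter E2F word (left) or its 7-letter form (right), for peaks just inside the gene, on the TSS and upstream within 499 bp, and for all coding genes; whiskers are exact 95% intervals. The members' bars stand at 1.85% and 17.6%, below the 11.4% and 35.1% of peaks on the TSS. Most member windows lie outside the searched stretch.

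Smaller ratios between the groups were found for these other promoter elements. The CCAAT box stood in 45.4% of members' promoters, against 52.3% for peaks on the TSS, 55.5% for upstream peaks and 42.3% for all coding genes. The GC box GGGCGG stood in 66.7% of members, 72.1% of genes with a peak on the TSS, 80.8% with an upstream peak and 49.2% of all. The ETS word CCGGAAG stood in 23.1% of members, 24.9% on the TSS, 18.4% upstream and 12.9% of all. The cell-cycle homology region, searched as TTTGAA or TTCGAA, stood in 19.0% of members, 18.4% of genes with a peak on the TSS, 12.7% with an upstream peak and 20.2% of all. The TATAAA word stood in 9.26% of members, 9.39% on the TSS, 6.87% upstream and 14.8% of all. Members' promoters had a median GC content of 59.3%, against 59.7% for peaks on the TSS and 63.3% for upstream peaks, and their median CpG ratio of 0.724 was below 0.823 and 0.835. The median CpG ratio was 0.73 for intragenic peaks below 1000 bp, close to that of members. All coding genes had a lower ratio of 0.567 and a GC content of 56.3%. Base composition sets how often such words turn up, and its part in the shares was not tested. These promoter sequences end 50 bases past the start, so most member windows lie beyond them, and a RefSeq start may differ from the authors' TSS. A word is a description of these letters, and its absence says nothing on binding.

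Members were weaker peaks than their promoter neighbours. The fold is the authors' ratio over input, and its formula is not given. Between Gins2 (167 tags, height 130, fold 24.8) and Troap (96 tags, height 52, fold 9.91), a pair picked by hand, it changed in proportion to height, not to tags. Other members broke this proportion. Cflar had the height of Troap (52) at a fold of 2.77, and Tuba1b had a height of 319 at a fold of 24.7. Lower folds and the lower summits described below may still be in part the same measurement, which was not tested. The median fold was 5.38 in members (95% order-statistic interval 5.10 to 5.62), 6.86 in peaks on the TSS (6.67 to 7.12) and 6.39 in upstream peaks within 499 bp (6.12 to 6.75). Over the 5400 other peaks of the list it was 4.90, a difference of 0.48 that turned to -0.77 (members minus the others) among peaks with an FDR of at most 1%. Member folds ran from 2.56 at Mllt10 to 24.8 at Gins2, with quartiles of 4.29 and 7.44. A fold of at least 10 was reached by 33 members (12.4%, exact interval 8.66 to 16.9), close to the 12.8% of the whole list. It was reached by 277 peaks on the TSS (24.1%) and 152 upstream peaks (22.3%). A fold of at least 5 was reached by 154 members (57.7%), against 48.8% of the list. A fold of at least 20 was reached by 4 members (1.5%), against 1.89% of the list.

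**Figure D2:**
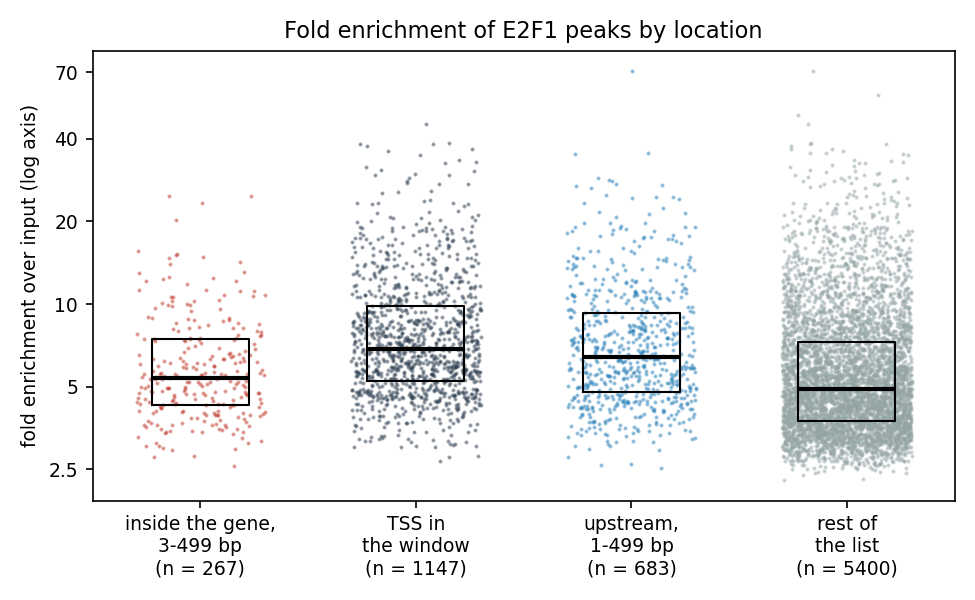
Fold over input (log axis) of each peak just inside the gene (267), with the TSS in the window (1147), upstream within 499 bp (683) and in the rest of the list (5400); boxes span the quartiles and the thick line is the median. The members' median of 5.38 lies below 6.86 and 6.39 and above 4.90.

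Over all lengths members held about as many tags as the other promoter peaks, in longer regions with lower summits. The median tag count was 167 in members, 159 in peaks on the TSS and 166 in upstream peaks. The called region had a median length of 2106 bp in members, against 1799 bp on the TSS and 1791 bp upstream. The pileup height had a median of 50 in members and 62 in both other groups. Height per 100 tags had a median of 32.3 in members, 44.6 on the TSS and 41.8 upstream. Over the 5400 other peaks of the list the medians were 148 tags, 1904 bp, a height of 45 and 35.8 per 100 tags. The members' median height was thus above that of the rest of the list, while their height per 100 tags was below it. Within regions of 1500 to 2500 bp the median height was 48.5 in 118 members, 68 in 459 peaks on the TSS and 66 in 287 upstream peaks. In regions below 1500 bp it was 39 in 52 members, 51 on the TSS and 52 upstream. In regions of 2500 to 4000 bp it was 57 in 97 members, 75 on the TSS and 71 upstream. At matched length the summit was thus lower too, and the tags were fewer: 79.5 in members, 90 on the TSS and 98 upstream below 1500 bp. At 1500 to 2500 bp the median tag count was 145.5 in members, 173 on the TSS and 171 upstream, and at 2500 to 4000 bp it was 257 in members, 272 on the TSS and 263 upstream. The shape was shared by the 111 peaks inside a gene below 1000 bp with no promoter entry, whose medians were 2182 bp, a height of 55 and 36.0 per 100 tags. Promoter peaks shared by several genes were as long (2114 bp) but higher (65). In the same classes the median fold was 5.16 in members against 7.28 on the TSS at 1500 to 2500 bp, 6.01 against 6.75 below 1500 bp, and 5.20 against 6.59 in the longest regions. The gap to upstream peaks was smallest in regions below 1500 bp, where these had a median fold of 6.37.

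**Figure D3:**
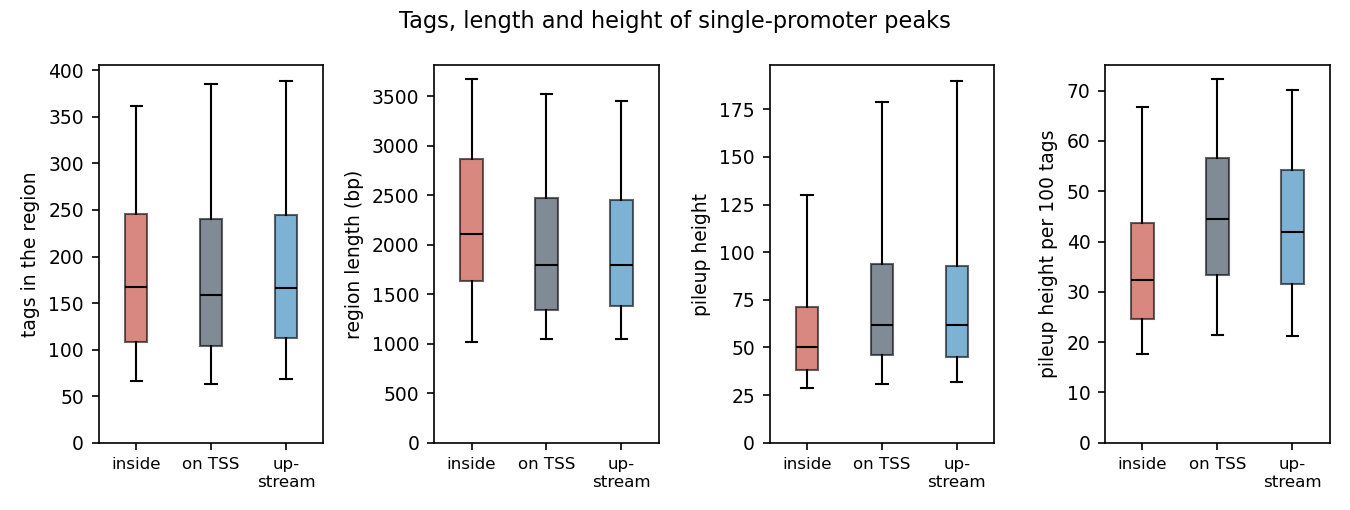
Tags in the region, region length (bp), pileup height and height per 100 tags for peaks inside the gene, on the TSS and upstream within 499 bp; boxes are quartiles with the median, whiskers the 5th and 95th percentiles. Median tags are alike (167, 159 and 166), while of these 3 groups members have the longest regions (2106 bp) and the lowest heights (50).

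Members also differed widely in shape among themselves. Tuba1b had the most tags (607) and the highest summit (319). Dtx4, a Notch-pathway ubiquitin ligase gene, had the fewest tags (34) in the shortest region (676 bp). The longest region was that of Hat1, a histone acetyltransferase gene, at 3987 bp. Tags were most concentrated at Glra1, a glycine receptor gene, with a height of 91.8 per 100 tags. They were most spread at Cflar, an inhibitor of caspase activation, with 13.5 per 100 tags. Cflar shows how tags and fold part ways, since it had 386 tags but a height of 52 and a fold of only 2.77.

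The distance from the TSS to the near edge of the window ran from 3 to 499 bp, with a median of 202 bp. Members thinned out slowly into the gene, with 73, 59, 48, 52 and 35 peaks in successive classes of 100 bp. Upstream peaks over the same distances numbered 343, 156, 88, 55 and 41, so most of them sat in the class next to the TSS. Median fold in the members' classes was 5.56, 5.36, 5.70, 5.12 and 4.83, going into the gene. The upstream classes had 6.68, 6.23, 6.34, 5.19 and 5.96, going away from it. A fold of 10 was reached by 12 of 73, 7 of 59, 9 of 48, 2 of 52 and 3 of 35 members in these classes. Upstream it was reached by 90 of 343, 32 of 156, 22 of 88, 2 of 55 and 6 of 41 peaks, so at 301 to 400 bp the shares were alike (3.85% of members and 3.64% upstream).

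**Figure D4:**
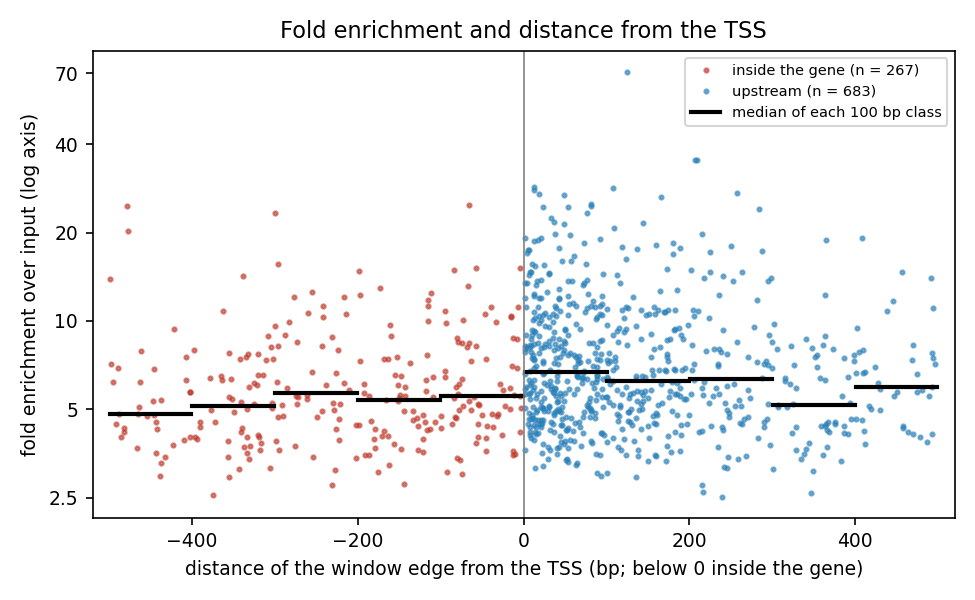
Fold over input (log axis) against the distance from the TSS to the near window edge (bp, below 0 inside the gene) for 267 members and 683 upstream peaks; black bars are medians per 100 bp class. Members' medians run between 4.83 and 5.70, and upstream peaks crowd next to the TSS.

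The ends of the distance range are set by the authors' classes, and the values there were mixed. The nearest members were Stk11ip (3 bp, fold 5.07), Rhot2 (4 bp, 15.2) and Nup205 (4 bp, 5.56). Rhot2 encodes a mitochondrial GTPase and Nup205 a nuclear pore protein. Just upstream of the TSS, outside the group, stood Dhx36 (1 bp, 19.2), Rnf26 (1 bp, 13.4) and Mrpl42 (1 bp, 12.0). The farthest members were Banp (499 bp, 13.9), Pcif1 (498 bp, 7.13) and Gprc5c (496 bp, 6.21). Just beyond them, classed as intragenic, stood Hexim2 (504 bp, 33.2), Slc36a4 (508 bp, 4.74) and Spice1 (510 bp, 8.07). The 111 intragenic peaks below 1000 bp with no promoter entry had a median fold of 5.72 (5.16 to 6.28), an interval that overlaps that of the members.

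Although their summits lay inside the gene, nearly all members' called regions ran back over the TSS, as did those of upstream peaks from the other side. Among 216 members with a RefSeq strand the region held the TSS in 208 (96.3%, 92.8 to 98.4). The share was 57 of 57 in the nearest class of 100 bp and 26 of 31 in the farthest. The regions were long for such distances. In 243 of all 267 members (91.0%) both flanks were at least as long as the distance to the TSS. The 96.3% thus says little beyond region length. The region reached a median of 930.5 bp from the window toward the TSS and 671.5 bp into the gene. Of upstream peaks within 499 bp, 538 of 553 held the TSS (97.3%), and their regions reached 542 bp toward the TSS and 714 bp away from the gene. By these medians the longer arm pointed upstream in both groups, but among members the arm toward the TSS was the longer in only 126 of 216 (58.3%, 51.5 to 65.0). The 8 members whose region stopped short were Hmgb1, Fam46c, Stard3, Fam173a, Zkscan17, Pstk, Ypel1 and Slc25a24. At Hmgb1, which encodes an abundant chromatin protein, the region reached 82 of the 260 bp back to the TSS. Among intragenic peaks below 1000 bp with a strand, 46 of 88 regions held the TSS (52.3%).

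Genes of DNA replication and nucleotide supply gave 4 of the 20 strongest members, among them the highest fold of all. Each count below is for a list of genes chosen with earlier results of these data known. Of 50 replication genes with a promoter peak, 8 were members (16.0%), while 267 of all 2955 genes with a promoter peak were members (9.04%). Their median fold was 8.77, against 5.38 over all members. A fold of 10 was reached by 4 of the 8, against 12.4% of all members and 12.8% of the whole list. Replication genes with their promoter peak on or upstream of the TSS were not compared, so this strength is not shown to be particular to members. Gins2, part of the helicase that opens DNA for replication, stood at a fold of 24.8 with 167 tags, its window being chr8:123112838-123113138 (mm9, as for all peaks), 66 bp inside the gene. Tyms, which makes thymidylate, had a fold of 20.2 with 453 tags at chr5:30399380-30399680, 477 bp inside. Gmnn, an inhibitor of origin licensing, had 12.1 with 365 tags at chr13:24853275-24853575. Timeless, a replication fork protein, had 11.2 with 219 tags at chr10:127669235-127669535, and this peak also lay 366 bp from the end of Mip. These 4 stood well above the other 4. Dut and Dck, enzymes of the nucleotide pool, had 6.29 and 5.52. Dhodh, an enzyme of pyrimidine synthesis, had 5.04, and Pold2, a subunit of DNA polymerase delta, had 3.61.

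Mitotic genes gave 4 members of 44 genes with a promoter peak, a share of 9.09%, and their median fold was 9.24. Anapc5 had a fold of 15.7 with 260 tags at chr5:123270751-123271051. Kif4, a kinesin that moves on chromosomes, had 13.0 with 103 tags at chrX:97821249-97821549. Anapc7, another subunit of the anaphase-promoting complex, had 5.51, and Bub3, of the spindle checkpoint, had 5.42. Myc, a growth-promoting transcription factor, was the 1 member among 10 genes of the G1/S list with a promoter peak. Its fold was 11.1 with 307 tags at chr15:61816953-61817253, 7 bp inside the gene.

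Partners of E2F itself stood on either side of the median fold. Among 9 genes of E2F factors, pocket proteins and the MuvB complex with a promoter peak, 2 were members (22.2%), namely Lin37, a MuvB subunit, and Tfdp2, a DP partner of E2F. Lin37 had a fold of 5.57 and Tfdp2 had 3.05, at FDRs of 0.66% and 7.96%.

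DNA repair genes gave 4 members of 49 with a promoter peak. Fanci had a fold of 9.89 at chr7:86537098-86537398. Ung, which removes uracil from DNA, had 4.89, Parp1, a sensor of DNA breaks, had 4.33, and Poli, a translesion polymerase, had 4.08. Of 13 apoptosis and p53 genes with a promoter peak the members were Trp73 (4.81, 46 tags) and Cflar (2.77, 386 tags). Thus a weak fold went with few tags in one and with many in the other. The Trp73 member had an FDR of 6.31%. Another promoter peak of Trp73, 1925 bp from the TSS, was stronger, with a fold of 8.15 and 116 tags.

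Chromatin genes gave 5 members of 31, and 4 of the 5 were below the members' median. Hmgb1 had a fold of 10.7 at chr5:149864529-149864829, with 86 tags. Smarca2 and Smarca4, which encode the alternative motors of the SWI/SNF remodeller, had 4.52 and 3.78. Smarce1, another SWI/SNF subunit, had 3.63, and Setd1a, a histone methyltransferase, had 4.34. General transcription genes gave 2 of 34, Taf8 of TFIID at 4.38 and Med23 of Mediator at 4.01.

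The members from the lists of liver and metabolic genes each lay below the median fold, at shares near the 9.04% of all promoter genes or at 0. The list of glucose, insulin and fat oxidation genes gave 3 of 25 (12.0%), namely Irs1, an adaptor of the insulin receptor (5.20), Acadl, an enzyme of fat oxidation (4.74), and Slc2a1, a glucose transporter (3.41). Of 9 genes of liver factors and receptors with a promoter peak the member was Tbx3 (11.1%, fold 5.0). None of 16 lipid synthesis genes and neither of the 2 hepatocyte secreted protein genes with a promoter peak was a member. None of 13 marker genes of other liver cells had a promoter peak. Over the 13 lists together, 32 of 292 genes with a promoter peak were members (11.0%), with a median fold of 5.02.

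**Figure D5:**
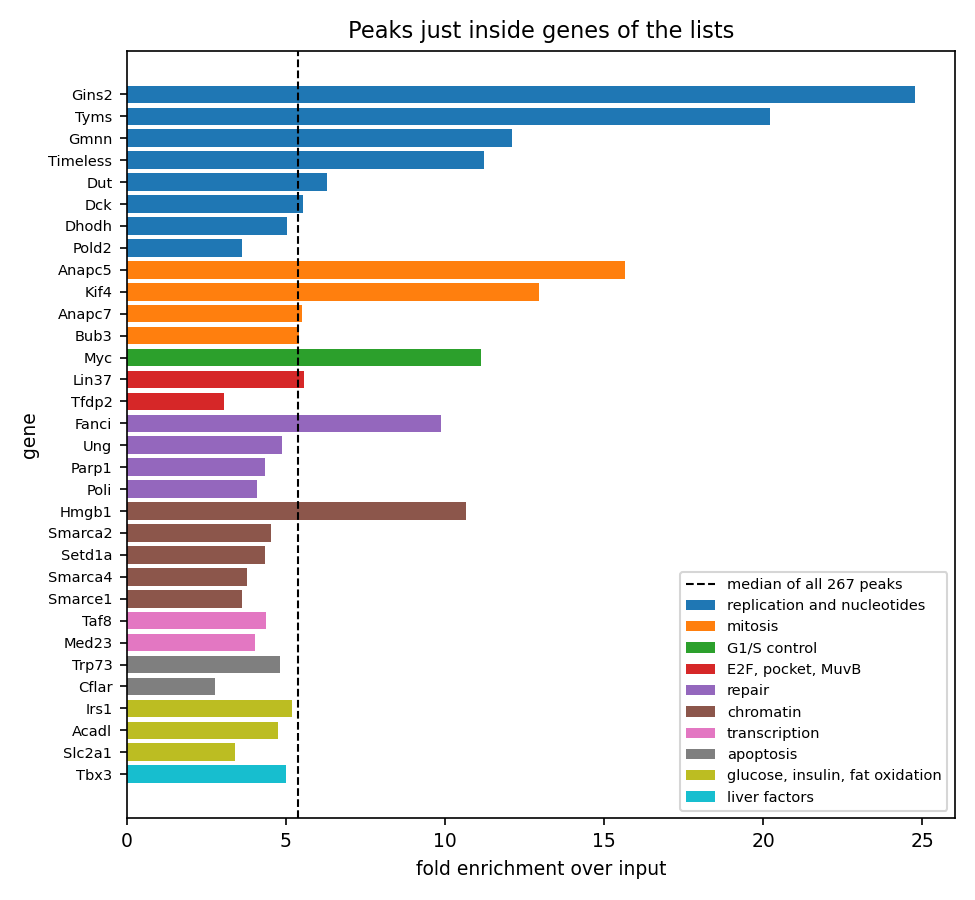
Fold over input of the 32 members that belong to a gene list, coloured by list; the dashed line is the median of all 267 members (5.38). Replication and mitosis genes hold the longest bars, from Gins2 at 24.8, and genes of the metabolic and liver lists stay left of the line.

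Many of the strongest members lay outside these lists. Tuba1b had a fold of 24.7 at chr15:98764218-98764518, 478 bp inside the gene. 1810014F10Rik had 23.3 with 224 tags, 300 bp inside. Rhot2 had 15.2, in a window that also touched the end of Wdr90. Meis2, a homeobox factor gene, had 15.1, and Glra1 had 14.9 with only 85 tags. Hat1, which acetylates new histones, had 13.1 and Ubtf, a factor of ribosomal RNA transcription, had 12.6. Hlcs, which attaches biotin to carboxylases, had 12.3, and Cyp2r1, a vitamin D hydroxylase of liver, had 12.1 with 482 tags. Vegfa, a growth factor for blood vessels, had 11.8. Thnsl2 had 14.3, Banp 13.9 and Ttll9, a tubulin ligase relative, 12.4. These top peaks came from many kinds of genes, at distances from 4 to 499 bp.

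Tags ranked members differently from fold. After Tuba1b, the most tags were at Mt1, a metallothionein gene (542 tags, fold 11.2), 5430403G16Rik (488, fold 6.93), Cyp2r1 (482) and Dynlt1e, a dynein light chain gene (480, fold 6.37). The lowest folds were at Mllt10 (2.56), Cflar (2.77), Pyroxd1 (2.79), Aqr, a spliceosomal helicase gene (2.95), and Slc25a24, a mitochondrial carrier gene (2.97). All 5 lowest had at least 173 tags, above the members' median of 167. Tuba1b, Hmgb1 and Dynlt1e have close copies elsewhere in the genome, and the placing of reads with several matches was not stated.

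Members lay alone in most cases. Another listed peak was assigned to the same gene in 43 of 267 members (16.1%, 11.9 to 21.1), against 16.1% of peaks on the TSS and 21.8% of upstream peaks. The member was the strongest peak of its gene in 28 of the 43. Tuba1b had a second peak 532 bp downstream of the gene with a fold of 3.85. Tfam, a factor of mitochondrial DNA, had 5.38 at its member and 12.9 at an intragenic peak 3708 bp from the TSS. Banp had an upstream promoter peak of 12.0 beside its member of 13.9. Tfam and these second peaks were picked out after their values were seen.

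A second gene was named for 167 of the 267 members, in addition to the promoter gene. In 98 the peak lay downstream of that other gene, at a median of 5320 bp, and 15 of these were within 1000 bp. In 67 it lay upstream of the other gene, at 2194 to 19920 bp, and in 2 it lay in a 3′ untranslated region. The other 100 members carried 1 entry alone. The FDR was at most 1% in 140 members and 0 in 8.

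The E2F word was more frequent at stronger peaks on the TSS, and too rare in members to follow in this way. Among members an E2F word was found in 1 of 88 with a fold below 5, 3 of 104 with a fold of 5 to 10, and 0 of 24 with a fold of 10 or more, which allows a share of up to 12.5% by the rule of 3 counts and 14.2% by the exact upper limit. Among peaks on the TSS the shares were 4.90%, 8.96% and 22.5% in the same order, and among upstream peaks 6.83%, 10.7% and 14.9%. The 7-letter forms stood in 17.0%, 16.3% and 25% of members in that order, against 28.9%, 31.3% and 48.9% on the TSS. The 4 members with an E2F word had folds of 7.44 at Phf19, 6.74 at 5830415F09Rik, 5.17 at Fam173a and 3.81 at Kbtbd7. In the printed promoters the word began 208, 39, 20 and 106 bases before the start, in the same order.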

How the data were processed

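Primary mouse hepatocytes carrying Ad-E2F1 gave 1 E2F1 ChIP record and 1 input record. Reads were aligned with Bowtie2 2.1.0 to mm9 (NCBIM37), per the submitters' processing notes, and the file headers name MACS as the peak caller. Of its version, its settings and any pooling of replicates the sources used here say nothing. The deposited table gives for each peak the count of tags, the height of the pileup signal, the fold as a ratio over input, a score derived from the p-value, and the FDR in percent. The score was not used further, and 1 unexplained column was not used.

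Entries were grouped by peak, and those with exactly 1 promoter entry and a window inside the gene were kept. The authors' promoter class reaches 499 bp inside and 1980 bp upstream of a TSS. Peak coordinates are mm9, counted from 1. Shares carry exact (Clopper-Pearson) 95% intervals and medians 95% order-statistic intervals, for counting error over peaks or genes only. Library depth is unknown, no test between samples was possible, and peaks are not replicates. RefSeq tables (GRCm38.p6) gave names, strands and promoters: 265 of 267 genes matched, 263 of them protein-coding. The strand in the table was that implied by the peak file in 491 of 491 genes checked, within 1 bp.

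Named genes are the 20 highest and 5 lowest folds, the 5 with most tags, members of 13 gene lists (801 genes) and the 3 nearest to and farthest from the TSS. Not every gene under this rule is reported here. The members and lists were chosen with earlier results of these data known. Alternatives covered the fold and FDR thresholds, tag counts, the distance range, the number of entries, region length and the motif. Python 3.11.15, pandas 2.3.3, numpy 2.4.6, scipy 1.17.1 and matplotlib 3.10.9 were used. The selection and motif search were tested on simulated data.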

Additional observations from a re-analysis of the deposited data

How the results depend on the processing

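Of 37 alternatives over 10 results, 17 left the value close to the reported one. Keeping FDRs of at most 1% left 140 members, a median fold of 7.35, a share of 23.6% at a fold of 10, and 20 of the 32 list genes. The share of the whole list at a fold of 10 was not computed under this cut. The 23.6% is therefore not comparable with the 12.8% of the list over all FDRs. Under the 1% cut the members' median minus that of the rest reversed to -0.77, against 0.48 over all peaks, and the cause was not tested. An FDR of at most 5% gave a median of 5.67. Keeping members with 1 entry left 100 members and 13 list genes. The share of members past the fold was 57.7% at a fold of 5 and 1.5% at a fold of 20. The members' median minus that of peaks on the TSS was -1.48 over all peaks, -1.87 with at least 100 tags, -0.745 in regions below 1500 bp and -2.12 in regions of 1500 to 2500 bp. Minus all upstream peaks, at any distance, it was -0.815 over all, -1.09 with at least 100 tags and -0.255 below 1500 bp. Minus the rest it was 1.03 in regions of 2500 to 4000 bp. Genes with another peak were 4.12% within 5000 bp. The share with an E2F word was 17.6% with 7-letter forms and 0% in members with a fold of 10 or more. Without strand, 91.0% of regions reached past the TSS whichever side it lay on. The comparisons within region length and fold classes, by number of starts and without strand were chosen after seeing the data.

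No paired analysis was possible because the deposited peak list is not split by replicate, and leaving out a replicate was not possible either. With unknown library depth, a missing peak is not evidence of absence.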

Other observations

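Genes that encode numbered zinc finger proteins, most of them DNA-binding, were frequent among the members. Of 65 such genes with a promoter peak 13 were members (20%), against 9.04% of all genes with a promoter peak. Their folds ran from 3.38 to 8.51 with a median of 5.24, so none reached 10, against 12.4% of all members. These genes share much sequence with each other, and how reads with several matches were placed is not given. Solute carriers gave 5 of 42 (11.9%). A set picked by symbol to stand for splicing genes gave 4 of 34 (11.8%), namely Ddx59, Ddx11, Snrpe and Snrpa1. That set took in helicase genes by symbol and missed the spliceosomal Aqr, so it is not a count of splicing genes. No member was found among 24 mitochondrial ribosomal protein genes, 25 chaperone genes, 14 proteasome genes and 12 histone genes with a promoter peak. The families were defined by gene symbol and the shares were not tested against each other.

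Further genes of cell division and metabolism stood among the members outside the lists, picked out after their values were seen. Dlgap5, a spindle protein gene, had a fold of 10.6 with 268 tags. Nasp, a histone chaperone gene, had 10.0 with 446 tags, and Troap had 9.91 with 96. Tcof1, a factor of ribosomal RNA synthesis, had 9.59 and Gar1, of a small nucleolar ribonucleoprotein, had 7.32. Shmt2, which supplies one-carbon units in mitochondria, had 8.89. Pank2, an enzyme of coenzyme A synthesis, had 7.74, and Ghr, the growth hormone receptor, had 6.19. Pnpla2, the main triglyceride lipase of fat stores, had 5.71, and Angptl4, an inhibitor of lipoprotein lipase, had 3.05. The proliferation genes of this set lay higher than most of its metabolic ones, in a choice made with the values known.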
